A study of Arabidopsis thaliana with 6 samples.

Results

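The 122 genes described here had a lower mRNA level in the nerd-1 mutant than in both the wild type and the complemented line. They were chosen from 33242 genes on chromosomes 1 to 5 of *Arabidopsis thaliana* by their measured values. The lowest of the 4 WT and nerd-1+T values had to reach 5 FPKM (fragments per kilobase of transcript, scaled to the mapped reads of a library) and to be at least 1.5 times the higher of the 2 nerd-1 values. That rule gave 128 genes, and 6 of them were left out by name. In all, 13884 genes reached 5 FPKM in those 4 libraries.

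Polyadenylated RNA was sequenced from 14-d-old seedlings of the Col-0 ecotype, with 2 replicates for each of 3 genotypes, so that an SD rests on n = 2. WT was Col-0 without an insertion, nerd-1 was a T-DNA insertion line in NERD (AT2G16485), and nerd-1+T was the complemented nerd-1 line, which still carries the insertion and expresses a flag-tagged NERD from a transgene. The promoter of that transgene, the number of complemented lines and the number of seedlings per library are not given in the sources used here. No label says that the replicates were separate cultures, so the p-values measure the spread between these libraries, which may be technical. In bulk seedlings, fewer cells of a type and less RNA per cell cannot be told apart.

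NERD is a nuclear protein with GW repeats, the type of motif that binds ARGONAUTE proteins, and a PHD finger, a domain that reads histone tails. The study asked how NERD and the m6A pathway act on the formation of mRNA 3′ ends. As background, the *Arabidopsis* genome is compact and genes often follow each other closely on the same strand. A transcript ends where it is cleaved and polyadenylated, and RNA polymerase can otherwise run on into the next gene. The starting point of a gene that lies just behind another one is therefore close to the end of its neighbour.

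Facts of the whole series that bear on the values are few. The libraries held FPKM totals of 847355 to 966119, and the metallothionein gene MT1A alone took 12.9% and 13.5% of the total in nerd-1, whereas its share in WT was 1.59% and 1.71% and its share in nerd-1+T was 3.57% and 1.101%. The photosynthetic marker RBCS1A was at 9496 to 12238 FPKM in all 6 libraries, the root markers COBL9, EXPA7 and PHT1;1 were at 1.57 to 10.6 FPKM, and each of the 6 seed and flower markers stayed below 1 FPKM. The chlorophyll-binding protein gene CAB3 and others of its list moved with the genotype. Of 17 light harvesting genes, 16 were higher in nerd-1 than in WT, beside 19.4% of all tested features. In nerd-1+T, 16 of the 17 were higher than in WT, beside 13.2% of all tested features. Their part in the results below was not tested.

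NERD was itself among the 122 genes. It was listed at 14.1 and 13.9 FPKM in WT, at 7.59 and 7.45 FPKM in nerd-1 and at 63.7 and 63.5 FPKM in nerd-1+T. The 3 genotypes did not overlap, and the complemented line carried the most NERD mRNA. The rule did not set the direction of the contrast between nerd-1+T and WT. In nerd-1+T, NERD was 2.11 higher than in WT on the log2(FPKM + 1) scale (SE 0.04, limma, adjusted p = 3.39e-05). The gene lies on chromosome 2 from 7136845 to 7145424 on the minus strand. Of the other members, 10 lie on the same chromosome, the nearest 216526 bp away, and 2 are within 1000000 bp.

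The placing of these genes on the chromosomes was not used to choose them. Chromosome 5 held 32.2% of annotated members and 23.6% of genes with at least 5 FPKM, and chromosome 2 held 9.09% and 15.2%. On chromosomes 1, 3 and 4 the shares were closer to each other. Members also stood apart in the gene just upstream on the same strand. Of the 121 members found in the annotation, 48 (39.7%) had another annotated gene on the same strand that overlapped their start or ended less than 200 bp before it. Among all 13843 genes with at least 5 FPKM for which an upstream gene was annotated, the share was 14.8%. The median distance to the upstream gene on the same strand was 674 bp for members and 2464 bp for all those genes. The junctions of 4 such pairs, picked after values were seen among those with a gap of 10 to 24 bp, are printed here as examples. Each is a 30-base window on the strand of the genes, read 5′ to 3′. The gap between the annotated end of the upstream gene and the annotated start of the member is in capitals.
TON1A to TON1B: taataaACAAGGTTTTTGAATGAtgtgttc
AT1G55680 to AT1G55675: tgtttcATAATATTTCTGTTTCCtagacta
AT3G51010 to AT3G51000: gttacCGCCACGTGTAATCTAACTagaggc
REF4 to PAC: gatttcTTTGAGACATTTTTCAATtgagct
These windows lie, in TAIR10.1, at chr3:20383873-20383902 (plus strand), chr1:20804568-20804597 (minus strand), chr3:18946616-18946645 (minus strand) and chr2:19679706-19679735 (plus strand). The whole intergenic sequence was thus 17 bp long before TON1B and before AT1G55675, 19 bp before AT3G51000 and 18 bp before PAC. Of those bases, 70.6% were A or T before TON1B, 76.5% before AT1G55675, 52.6% before AT3G51000 and 77.8% before PAC.

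TON1A and TON1B encode closely related proteins that place the preprophase band, the ring of microtubules that marks the plane of cell division. TON1B, the second of the pair, was at 38.8 and 37.3 FPKM in WT, at 12.1 and 12.1 FPKM in nerd-1 and at 33.8 and 38.4 FPKM in nerd-1+T. TON1A was at 26.1 and 26.7 FPKM in WT, at 22.4 and 21.0 FPKM in nerd-1 and at 21.2 and 23.2 FPKM in nerd-1+T. The level of the second gene was thus above that of the first in the WT libraries and below it in the nerd-1 libraries. TON1A itself, which the rule did not choose, was 0.27 lower on the log2 scale in nerd-1 than in WT (limma, adjusted p = 0.0169). TON1B spans 20383896 to 20386452 of chromosome 3.

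AT1G55675, which encodes a protein with no known function, was at 19.9 and 22.1 FPKM in WT, at 4.19 and 4.87 FPKM in nerd-1 and at 16.4 and 14.6 FPKM in nerd-1+T. The WD40 repeat gene in front of it, AT1G55680, was at 47.1 and 49.9 FPKM in WT, at 46.7 and 46.9 FPKM in nerd-1 and at 40.7 and 42.1 FPKM in nerd-1+T. The upstream gene did not pass the test between nerd-1 and WT (log2 difference −0.05, adjusted p = 0.415), whereas the member behind it was at the lowest levels in both nerd-1 libraries.

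AT3G51000, annotated as an alpha/beta hydrolase, was at 24.6 and 25.0 FPKM in WT, at 8.003 and 9.22 FPKM in nerd-1 and at 21.0 and 23.0 FPKM in nerd-1+T. Its upstream gene AT3G51010, annotated as a protein translocase subunit, was at 40.1 and 38.3 FPKM in WT and at 37.9 and 42.4 FPKM in nerd-1. Those WT and nerd-1 values overlapped, with a log2 difference of 0.03 (adjusted p = 0.754). PAC, which is needed for chloroplast development, was at 24.8 and 25.2 FPKM in WT, at 9.19 and 9.55 FPKM in nerd-1 and at 15.8 and 19.0 FPKM in nerd-1+T. REF4, a subunit of the Mediator complex that acts on phenylpropanoid synthesis, was at 6.05 and 6.56 FPKM in WT and at 7.57 and 7.70 FPKM in nerd-1. REF4 thus lay lower than PAC in every one of these libraries, and its log2 difference of 0.24 did not pass the test (adjusted p = 0.0809). In the pairs with a gap of 10 to 24 bp that are not printed, 3 upstream genes were lower in nerd-1 (limma). These were AT3G13040 (−0.51, adjusted p = 0.00978), EMB3131 (−0.46, adjusted p = 0.00603) and AT3G12950 (−0.29, adjusted p = 0.0179). AT5G46430 did not pass the test (−0.04, adjusted p = 0.599).

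Among the 48 pairs, 13 overlapped, by at most 168 bp, and 27 had a gap of 0 to 99 bp. Overlap with the upstream gene of the same strand was found for 10.7% of members and for 1.89% of all genes with at least 5 FPKM. Read the other way, 13 of the 261 genes that overlap their upstream gene were members (4.98%), and 35 of the 1789 genes with a gap of 0 to 199 bp were (1.96%). Farther away the share was 0.534% at 200 to 499 bp, 0.880% at 500 to 999 bp, 0.527% at 1000 to 4999 bp and 0.668% at 5000 bp or more. The limit of 200 bp was set after these values were seen. With a limit of 100 bp the shares were 33.1% of members and 9.30% of all genes with at least 5 FPKM, and with 500 bp they were 45.5% and 24.3%.

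**Figure D1:**
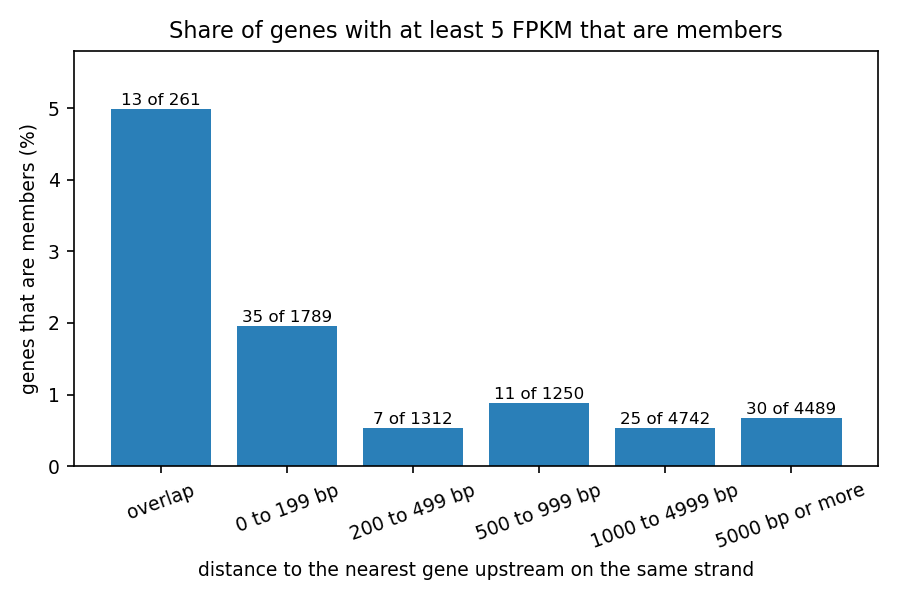
Share of the genes with at least 5 FPKM in the WT and nerd-1+T libraries that belong to the 122 members (y axis, percent, with the counts above each bar), by the distance to the nearest annotated gene upstream on the same strand (x axis). The share was 4.98% for genes that overlap their upstream gene, 1.96% for gaps of 0 to 199 bp and between 0.527% and 0.880% for longer gaps.

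None of the other 3 kinds of neighbour showed an excess of this size, and close neighbours on the opposite strand were fewer among members. A gene less than 200 bp downstream on the same strand was annotated for 19.0% of members and for 16.4% of all genes with at least 5 FPKM. On the opposite strand, a close downstream gene was annotated for 26.4% of members and 33.8% of those genes, and a close upstream gene for 4.96% and 12.0%. After the data were seen, the rule was also turned round to give 3 sets for comparison, each with the same level of 5 FPKM and ratio of 1.5 between the libraries of the genotypes named. Of the genes that were higher in nerd-1 alone, 14.6% (n = 239) had a close upstream gene on the same strand. The share was 9.43% (n = 541) for genes lower in both nerd-1 and nerd-1+T than in WT, and 7.50% (n = 240) for genes lower in nerd-1+T alone.

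**Figure D2:**
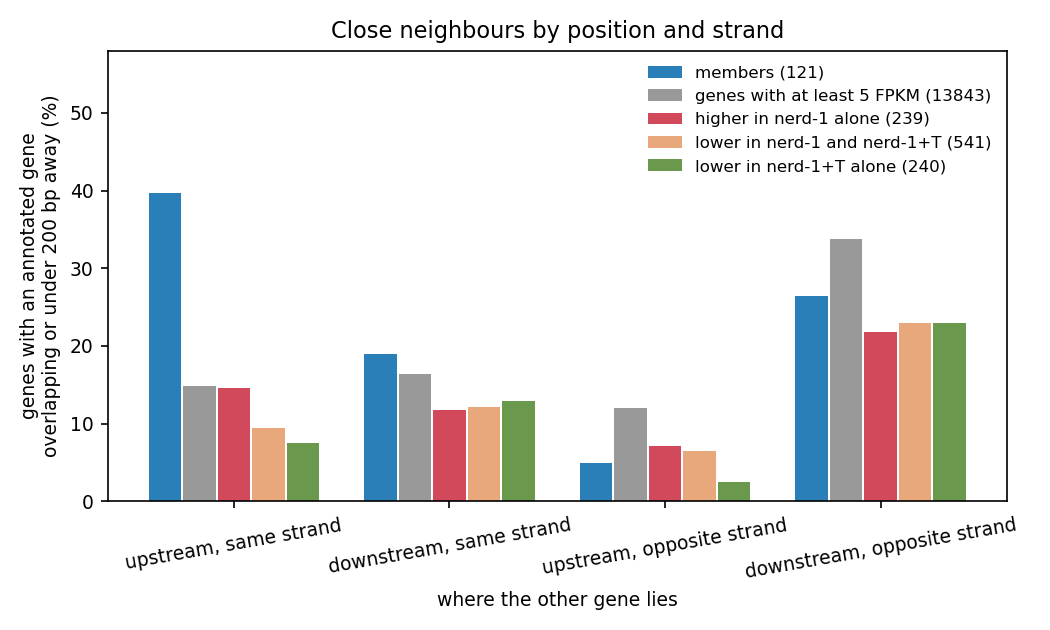
Share of genes (y axis, percent) with an annotated gene that overlaps or lies less than 200 bp away, by the position and strand of that gene (x axis), for members, for all genes with at least 5 FPKM and for 3 sets made with the rule turned round (number of genes in brackets). The members' bar stands at 39.7% for upstream genes on the same strand, where the other 4 bars lie between 7.50% and 14.8%.

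Over the alternatives of the rule that were tried, the share with a close upstream gene ran from 26.1% to 45.8%. These sets share genes with the 122 members, so their shares are not independent of the 39.7% of the main rule. The rule without nerd-1+T replicate 1 gave 417 genes, of which 26.1% had a close upstream gene on the same strand. With a ratio of 1.3 in place of 1.5 it gave 351 genes, and the share was 30.9%, whereas a ratio of 2 left 24 genes and a share of 45.8%. The sets of 417 and 351 genes each hold all 122 members. Their shares lay between that of the members and the 14.8% of all genes with at least 5 FPKM. When the 6 genes that were left out by name were put back, 52 of 127 annotated genes (40.9%) had a close upstream gene.

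None of the 48 upstream genes was a member, and all 48 were tested between nerd-1 and WT. Of these, 10 (20.8%) were higher, 19 (39.6%) were lower and 19 did not pass the threshold. Over all 20249 tested features, 19.4% were higher and 36.3% were lower in nerd-1 (55.7% in either direction), so the upstream genes passed the test about as often as other features did. Their median log2 difference was −0.10, beside −0.11 for all tested features, and 40 of the 48 lay within 0.5 of that median. In each of the 48 pairs the fitted difference of the upstream gene was above that of the member, a direction that the choice of members largely fixes. The calls moved with single libraries: fewer of the upstream genes were called in each direction without one of the WT or nerd-1 replicates. With each library scaled by its median feature, 14 were higher and 11 were lower, beside 27.2% and 25.3% of all tested features. With scaling to the FPKM total 6 were higher and 28 were lower, beside 13.0% and 51.0% of all tested features. The direction in which more of them moved thus turned with the scaling, as it did over all features.

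**Figure D3:**
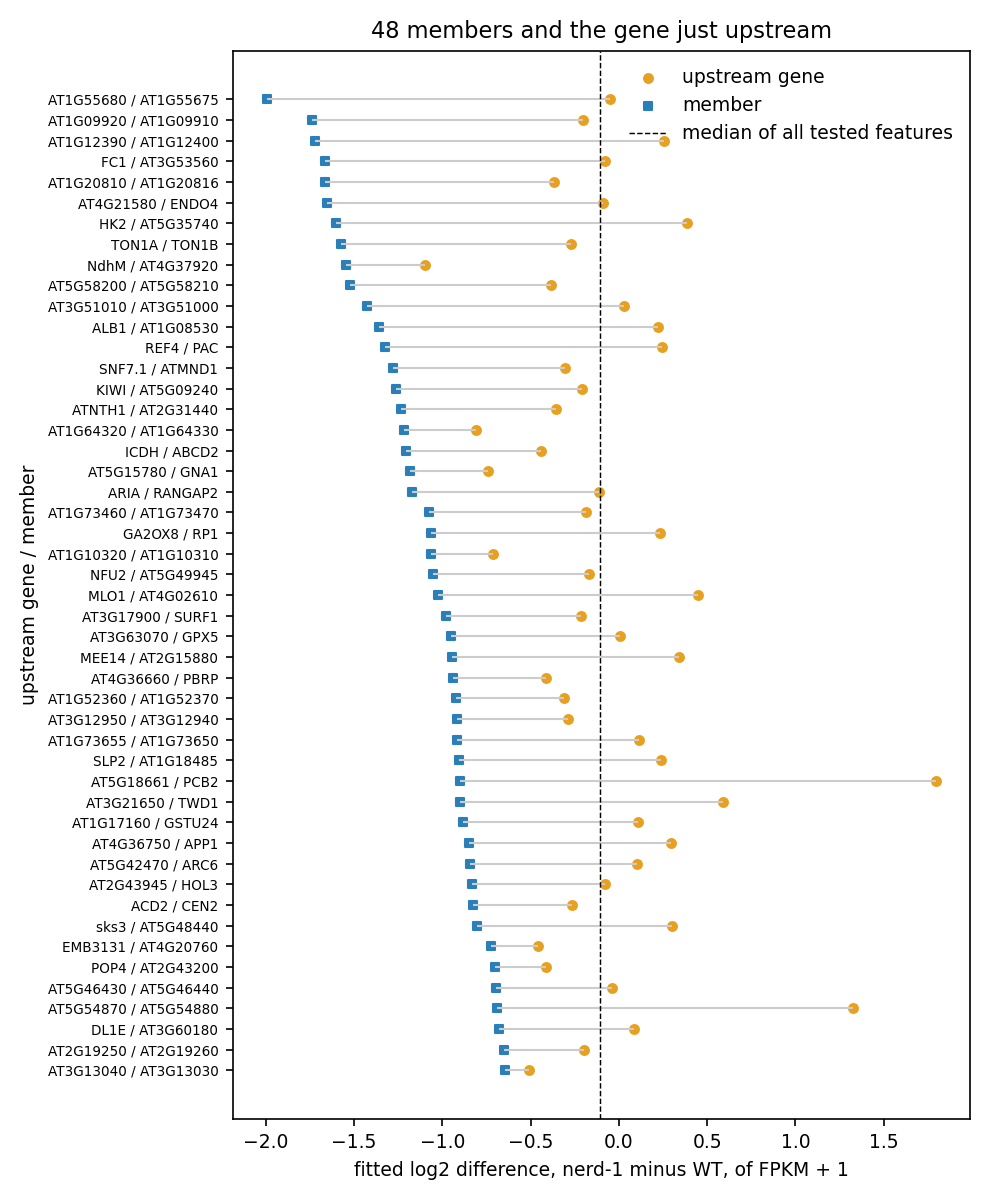
Fitted log2 difference between nerd-1 and WT (x axis, of FPKM + 1) for each of the 48 members with a close upstream gene on the same strand (squares) and for that upstream gene (circles), joined by a line, 1 pair per row. The dashed line is the median of all tested features (−0.11), around which 40 of the 48 upstream genes lie within 0.5.

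The extremes among the upstream genes lay on both sides. NdhM (AT4G37925), a subunit of the chloroplast NAD(P)H dehydrogenase complex, ends 67 bp before the member AT4G37920, annotated as endoribonuclease E-like. NdhM was at 211 and 208 FPKM in WT, at 95.8 and 98.6 FPKM in nerd-1 and at 137 and 165 FPKM in nerd-1+T, and it fell by 1.099 on the log2 scale in nerd-1 (SE 0.09, limma, adjusted p = 0.000976). The member AT4G37920 was at 38.9 and 41.0 FPKM in WT, at 12.7 and 13.3 FPKM in nerd-1 and at 31.1 and 34.9 FPKM in nerd-1+T. Both genes of this pair were thus lowest in nerd-1.

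At AT5G54870, a gene annotated as an inositol trisphosphate phosphatase, the direction was the opposite. It was at 19.4 and 18.1 FPKM in WT, at 48.8 and 48.4 FPKM in nerd-1 and at 48.02 and 41.2 FPKM in nerd-1+T, a rise of 1.33 on the log2 scale in nerd-1 (SE 0.08, adjusted p = 0.000444). The DTW domain gene AT5G54880 starts at the base after its annotated end and was at 5.98 and 5.32 FPKM in WT, at 3.03 and 3.22 FPKM in nerd-1 and at 9.39 and 10.7 FPKM in nerd-1+T. The upstream gene was high in both lines with the insertion, whereas the member was low only in the 2 nerd-1 libraries, as the rule requires.

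PCB2, the divinyl reductase of chlorophyll synthesis, starts 36 bp behind AT5G18661. PCB2 was at 104.5 and 97.1 FPKM in WT, at 53.4 and 53.9 FPKM in nerd-1 and at 81.0 and 91.7 FPKM in nerd-1+T. AT5G18661 was at 1.83 and 5.42 FPKM in WT, at 14.0 and 13.7 FPKM in nerd-1 and at 8.36 and 8.63 FPKM in nerd-1+T. The upstream gene was 1.80 higher on the log2 scale in nerd-1 (SE 0.36, adjusted p = 0.0105), and leaving out nerd-1 replicate 1 or 2 raised its adjusted p to 0.0617 and 0.0596.

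The ratio of the lowest WT or nerd-1+T value to the higher nerd-1 value, which chose the members, had a median of 1.67 and a maximum of 4.33, and 24 members reached 2. Its median was 1.76 for the 48 members with a close upstream gene on the same strand and 1.66 for the other 74, and 9 of the 20 members with the largest ratio had such a neighbour.

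The largest ratio belonged to AT1G09910, annotated as a rhamnogalacturonate lyase, a type of enzyme that cuts pectin. It was at 7.89 and 8.75 FPKM in WT, at 1.75 and 1.82 FPKM in nerd-1 and at 10.3 and 8.81 FPKM in nerd-1+T. Its upstream gene AT1G09920 ends 142 bp before it and was at 34.4 and 34.6 FPKM in WT, 30.3 and 29.4 FPKM in nerd-1 and 26.8 and 29.8 FPKM in nerd-1+T. The mRNA of this member was thus low in both nerd-1 libraries beside a neighbour that was 0.20 lower in nerd-1 on the log2 scale (adjusted p = 0.0377).

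The next was AT5G58210, a hydroxyproline-rich glycoprotein gene 41 bp behind AT5G58200. It was at 7.98 and 7.86 FPKM in WT, at 2.05 and 2.17 FPKM in nerd-1 and at 6.91 and 8.06 FPKM in nerd-1+T. AT1G20816, annotated as an outer envelope pore-like protein, overlaps the end of AT1G20810 by 4 bp and was at 16.8 and 13.4 FPKM in WT, at 3.63 and 4.53 FPKM in nerd-1 and at 14.7 and 16.3 FPKM in nerd-1+T. In both genes the nerd-1+T values overlapped those of WT.

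ENDO4, an endonuclease gene, overlaps the end of AT4G21580 by 24 bp. It was at 10.01 and 9.03 FPKM in WT, at 2.57 and 2.13 FPKM in nerd-1 and at 6.56 and 8.34 FPKM in nerd-1+T. AT2G31440, an APH1-like subunit of gamma-secretase, overlaps the end of ATNTH1, a DNA glycosylase gene, by 75 bp. Its values were 14.4 and 14.4 FPKM in WT, 5.91 and 5.22 FPKM in nerd-1 and 19.1 and 14.3 FPKM in nerd-1+T. For ENDO4 both nerd-1+T libraries lay below WT, whereas for AT2G31440 they lay on either side.

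**Figure D4:**
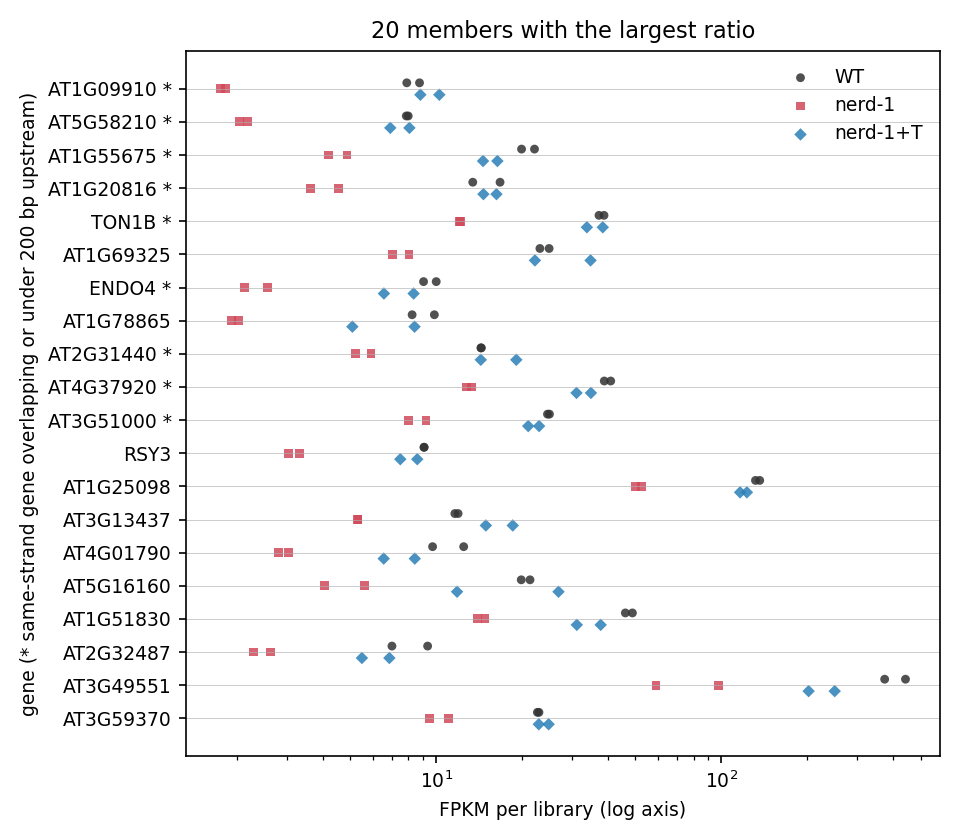
Level of the 20 members with the largest ratio (y axis, 1 gene per row) in each of the 6 libraries (x axis, FPKM, log axis), with 2 points per genotype. An asterisk marks the 9 members with a same-strand gene that overlaps or lies less than 200 bp upstream, and the nerd-1 points lie below those of WT and nerd-1+T in every row, as the rule requires.

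Other second genes cover a range of cell functions. ARC6, a chloroplast division protein, was at 21.2 and 21.3 FPKM in WT, at 11.4 and 11.5 FPKM in nerd-1 and at 17.44 and 18.1 FPKM in nerd-1+T. RANGAP2, which activates the GTPase Ran at the nuclear envelope, was at 17.3 and 17.0 FPKM in WT, at 7.15 and 6.98 FPKM in nerd-1 and at 12.6 and 14.1 FPKM in nerd-1+T. SURF1, a factor for the assembly of cytochrome c oxidase, was at 7.23 and 8.25 FPKM in WT, at 3.25 and 3.59 FPKM in nerd-1 and at 5.89 and 6.003 FPKM in nerd-1+T. In all 3 genes both nerd-1+T libraries lay between those of nerd-1 and WT.

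RP1, the regulatory protein of pyruvate orthophosphate dikinase, was the most abundant of them with 160 and 168 FPKM in WT, 77.1 and 78.6 FPKM in nerd-1 and 121 and 143 FPKM in nerd-1+T. Its upstream gene GA2OX8, a gibberellin oxidase, was low, at 0.653 to 1.49 FPKM in the 6 libraries. GPX5, a glutathione peroxidase, was at 33.0 and 31.5 FPKM in WT, at 15.3 and 17.2 FPKM in nerd-1 and at 45.8 and 49.1 FPKM in nerd-1+T. A strongly expressed upstream gene was therefore not a shared feature: it was above the member in the WT means in 28 of the 48 pairs and below it in the others. Over the 48 pairs the median of the WT means was 18.6 FPKM for members and 23.0 FPKM for upstream genes.

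The genes on all sides of the members were then counted. Of the 232 nearest neighbours that neither overlap a member nor are members themselves, 173 were tested, and 37 (21.4%) were higher and 61 (35.3%) were lower in nerd-1 than in WT, beside 19.4% and 36.3% of all tested features. Fewer were called in each direction without one of the WT or nerd-1 replicates. With each library scaled by its median feature, 53 neighbours were higher and 42 lower, beside 27.2% and 25.3% of all tested features. With scaling to the FPKM total 22 were higher and 88 lower, beside 13.0% and 51.0% of all tested features. The direction in which more neighbours moved thus turned with the scaling, as it did over all features. CNI1, a ubiquitin ligase gene 1047 bp downstream of AT5G27410, was at 4.51 and 4.54 FPKM in WT, at 15.2 and 15.6 FPKM in nerd-1 and at 3.603 and 2.82 FPKM in nerd-1+T. CNI1 rose by 1.57 on the log2 scale in nerd-1 (SE 0.10, adjusted p = 0.000445). Among these neighbours, the largest falls after NdhM were those of AT5G35738 (−1.02, SE 0.19, adjusted p = 0.00783), on the other strand beside AT5G35740 and past the threshold with every replicate but not without nerd-1 replicate 1 (adjusted p = 0.0540), and TRM25 (−0.94, SE 0.15, adjusted p = 0.0058), beside AGL42.

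The level of the members in the complemented line against WT was the one contrast between their own values that the rule did not set in direction. The rule still limited it, since each WT and nerd-1+T library had to reach 1.5 times the higher nerd-1 value. Genes with nerd-1+T near nerd-1 were thus left out, so the shares below are not a free comparison with all features. Of the 122 members, 10 (8.20%) were higher in nerd-1+T, 37 (30.3%) were lower and 75 did not pass the threshold, beside 13.2% higher and 39.8% lower (53.1% in either direction) over all tested features. The median log2 difference was −0.12 for members and −0.17 for all tested features. The counts moved up and down when 1 library was left out. With each library scaled by its median feature, 26 members were higher and 10 were lower. The direction in which more members moved thus turned with the scaling. The share of all tested features called under these settings was not set beside these counts, so they do not show a change particular to the members.

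The 2 nerd-1+T libraries differed more than those of the other genotypes. Replicate 2 was above replicate 1 in 101 of the 122 members (82.8%), beside 52.6% of the genes with at least 5 FPKM, and the median ratio of replicate 2 to replicate 1 was 1.16 for members and 1.01 for those genes. The median SD of log2(FPKM + 1) over members was 0.17 in nerd-1+T, 0.06 in WT and 0.05 in nerd-1. Over the genes with at least 5 FPKM it was lower, at 0.09, 0.03 and 0.03. The lowest of the 4 libraries that set the rule was a nerd-1+T library for 88 members and a WT library for 34.

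AT4G00670, a remorin family gene, had the largest fall in nerd-1+T. It was at 149 and 141 FPKM in WT, at 29.5 and 28.9 FPKM in nerd-1 and at 49.2 and 83.8 FPKM in nerd-1+T, a difference of −1.17 between nerd-1+T and WT (SE 0.23, limma, adjusted p = 0.0109). Without WT replicate 1 or 2 the adjusted p was 0.0617 and 0.0547. AT5G35480, of unknown function, was at 58.1 and 44.7 FPKM in WT, 11.5 and 11.3 FPKM in nerd-1 and 25.5 and 22.9 FPKM in nerd-1+T (−1.05, SE 0.13, adjusted p = 0.00225). In both genes the nerd-1+T libraries lay above nerd-1 and below WT.

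AT3G49551, an uncharacterized gene, was abundant and uneven, with 374 and 443 FPKM in WT, 59.1 and 97.6 FPKM in nerd-1 and 203 and 250 FPKM in nerd-1+T. Its difference of −0.85 between nerd-1+T and WT (SE 0.25, adjusted p = 0.0355) did not pass the threshold without WT replicate 1 (adjusted p = 0.0880), without WT replicate 2 (0.156) or without nerd-1+T replicate 1 (0.104). In the other direction, and after NERD, AT5G03120 was 0.93 higher in nerd-1+T (SE 0.17, adjusted p = 0.00754), with 85.8 and 87.2 FPKM in WT, 39.5 and 43.8 FPKM in nerd-1 and 138 and 197 FPKM in nerd-1+T. AT5G54880, already described as the gene behind AT5G54870, was 0.73 higher in nerd-1+T than in WT (adjusted p = 0.00216).

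**Figure D5:**
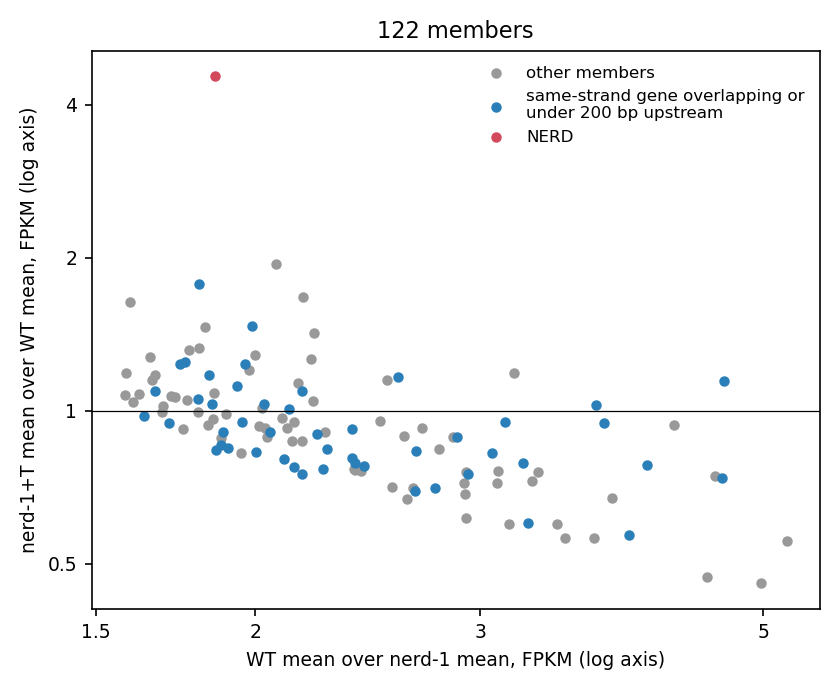
Fold of the WT mean over the nerd-1 mean (x axis, log axis) and fold of the nerd-1+T mean over the WT mean (y axis, log axis) for the 122 members, with the WT mean on both axes. The WT over nerd-1 fold runs from 1.58 to 5.21, and NERD stands apart at a nerd-1+T over WT fold of 4.55.

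Over all members the fold of the WT mean over the nerd-1 mean was 2.18 at the median member, and the corresponding fold for nerd-1+T was 2.04 (range 1.56 to 8.46). These values chose the members and are a description. The median of the means was 20.4 FPKM in WT, 8.71 FPKM in nerd-1 and 17.9 FPKM in nerd-1+T. In WT, 32 members were below 10 FPKM, 74 at 10 to 100 FPKM and 16 at 100 FPKM or more. Both nerd-1+T libraries were above both WT libraries in 24 members and below both in 53, and in 45 the genotypes overlapped.

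The dehydrins COR47 and ERD10, proteins that accumulate in cold and drought and protect cells from water loss, were the members of the cold response list. COR47 had the highest level of all members in WT, with 874 and 871 FPKM, and was at 443 and 430 FPKM in nerd-1 and at 934 and 1307 FPKM in nerd-1+T. ERD10 was at 203 and 210 FPKM in WT, at 96.5 and 100.1 FPKM in nerd-1 and at 171 and 228 FPKM in nerd-1+T. Between nerd-1+T and WT neither passed the test (0.34, adjusted p = 0.12 for COR47, and −0.07, adjusted p = 0.702 for ERD10). They adjoin on chromosome 1 on the minus strand, with ERD10 1029 bp upstream of COR47.

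The other cold response genes were mostly low in nerd-1+T as well. Of the 9 genes on the list that were not members, 6 were lower and 1 was higher in nerd-1 than in WT, and 8 were lower and 1 was higher in nerd-1+T than in WT, beside 36.3% of all tested features lower in nerd-1 and 39.8% lower in nerd-1+T. Over the whole list of 11, the median log2 difference from WT was −1.59 in nerd-1+T and −1.101 in nerd-1. COR15A, a chloroplast cold protein, was at 132 and 124 FPKM in WT, at 23.3 and 25.7 FPKM in nerd-1 and at 18.6 and 22.3 FPKM in nerd-1+T. COR15A was thus as low in nerd-1+T as in nerd-1. For COR47 and ERD10 the rule excludes this, since it requires nerd-1+T values at least 1.5 times the higher nerd-1 value.

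VSP2, an acid phosphatase that jasmonate induces, was the single member of the 15 genes on the jasmonate list. It was at 15.3 and 14.1 FPKM in WT, at 6.64 and 7.80 FPKM in nerd-1 and at 13.3 and 13.9 FPKM in nerd-1+T. Of the other 14 genes on that list, 2 were higher and 5 were lower in nerd-1 than in WT, a share lower that is near the 36.3% of all tested features. Over all 15 genes, 1 was called higher when any single WT or nerd-1 replicate was left out. The other 14 of the 16 lists, which covered light harvesting, nutrients, defence, glucosinolates, the clock, heat, auxin, wax and the m6A and 3′ end factors, held no member. The lists are not complete: IPS1, an RNA induced by phosphate starvation that binds miR399 without being cut, was a member but not on the phosphate list. IPS1 was at 5.54 and 7.73 FPKM in WT, at 3.17 and 2.93 FPKM in nerd-1 and at 5.35 and 6.21 FPKM in nerd-1+T. On the list of m6A and 3′ end factors, 1 of 15 genes was higher and 8 were lower in nerd-1 than in WT, beside 19.4% and 36.3% of all tested features, with a median of −0.24 beside −0.11 for all tested features, and without one of the WT or nerd-1 replicates 3 or 4 were called lower.

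Regulators of development were present as single genes. AGL24, a MADS-box protein that promotes flowering, was at 12.2 and 12.8 FPKM in WT, at 3.46 and 3.70 FPKM in nerd-1 and at 6.99 and 7.05 FPKM in nerd-1+T, and it was 0.75 lower in nerd-1+T than in WT (adjusted p = 0.000574). AGL42 was at 8.92 and 9.46 FPKM in WT, at 3.26 and 3.05 FPKM in nerd-1 and at 5.79 and 7.44 FPKM in nerd-1+T. AGL21, a MADS-box gene of lateral root growth, was at 8.48 and 8.64 FPKM in WT, at 4.63 and 4.61 FPKM in nerd-1 and at 7.77 and 8.75 FPKM in nerd-1+T. AGL24 and AGL42 remained below WT in both nerd-1+T libraries, and AGL21 overlapped WT.

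Other families had more than one member by name. The methyltransferases HOL2 and HOL3 of one cluster on chromosome 2 were at 15.9 to 18.4 FPKM and at 9.31 to 10.5 FPKM in WT, against 7.90 to 7.99 FPKM and 4.97 to 5.28 FPKM in nerd-1. The cytochromes P450 CYP71B23 and CYP702A5 were at 10.9 to 11.1 FPKM and at 7.27 to 7.94 FPKM in WT, against 6.16 to 6.29 FPKM and 2.90 to 3.45 FPKM in nerd-1. Besides COR47 and ERD10, 4 pairs of members adjoin or overlap each other. These are the leucine-rich repeat kinase gene AT1G51830 with the kinase-like gene AT1G51840 (3246 bp apart), and lipid-transfer protein genes AT5G46890 and AT5G46900 (2762 bp apart). The others are AT5G35480 with MRU1 (220 bp apart on opposite strands), and ABCD2 with AT1G54355. ABCD2, a transporter gene, and AT1G54355, an RNA gene, overlap on opposite strands over 1823 bp. Reads of that last pair cannot be told apart, since the sources do not say whether the counting used strand.

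The 5 members annotated as non-coding include the precursor of miR822, a young microRNA of *Arabidopsis*. Its mature sequences are printed because they identify the product of this gene, with the seed, bases 2 to 8, in capitals.
ath-miR822-3p: uGUGCAAAugcuuucuacagg
ath-miR822-5p: uGCGGGAAgcauuugcacaug
The seeds of these arms differ. In TAIR10.1 they lie at chr5:897067-897087 and chr5:897287-897307 on the minus strand. The precursor gene MIR822 was at 8.28 and 10.7 FPKM in WT, at 3.55 and 5.04 FPKM in nerd-1 and at 14.4 and 9.55 FPKM in nerd-1+T. These libraries hold polyadenylated RNA, so the values are of the precursor transcript and not of the mature microRNA. The RNA gene AT1G10682 was far more abundant, at 532 and 536 FPKM in WT, 315 and 316 FPKM in nerd-1 and 521 and 539 FPKM in nerd-1+T. AT3G02468, for which the annotation used here had no entry, was at 733 and 784 FPKM in WT, at 463 and 450 FPKM in nerd-1 and at 709 and 1034 FPKM in nerd-1+T. AT1G25098, the RNA gene with 132 and 136 FPKM in WT, has near-identical copies of its whole transcript in the genome (at least 95% identity), so its own level is uncertain.

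The remaining members of the first 20 by ratio had no close upstream gene. AT1G69325, a remorin family gene, was at 24.9 and 23.1 FPKM in WT, at 7.02 and 8.03 FPKM in nerd-1 and at 22.2 and 34.8 FPKM in nerd-1+T. RSY3 was at 9.07 and 9.08 FPKM in WT, at 3.32 and 3.03 FPKM in nerd-1 and at 7.49 and 8.59 FPKM in nerd-1+T. AT1G51830 was at 48.8 and 46.1 FPKM in WT, at 14.0 and 14.8 FPKM in nerd-1 and at 31.1 and 37.8 FPKM in nerd-1+T. The other 7, of which 4 are uncharacterized, were AT1G78865, AT3G13437, AT4G01790, AT5G16160, AT2G32487, AT3G49551 and AT3G59370. AT5G16160 was the least even of these, with 11.8 and 26.9 FPKM in the 2 nerd-1+T libraries against 19.9 and 21.3 FPKM in WT.

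Members were shorter and had fewer exons than other expressed genes. The median transcript length was 1327 bases for members and 1744.5 bases for the genes with at least 5 FPKM, with medians of 3 and 5 exons, and 19.0% against 12.5% had a single exon. A product without a known function was annotated for 12.4% of members and for 5.90% of those genes. In the window from 250 bases before to 50 after each start, the letters TATAAA occurred on either strand in 65.3% of members, in 51.1% of genes with at least 5 FPKM and in 50.1% of all promoters. On the strand of the gene and within the window from 50 to 16 bases before the start, TATAAA was found for 9.92% of members and 7.61% of genes with at least 5 FPKM. The G-box core CACGTG occurred in 1.65% of member windows, 8.97% of windows of genes with at least 5 FPKM and 6.90% of all windows. Of the other letters searched, only CATGTG was more frequent in members, in 14.9% of windows against 12.7% for those genes. The rest were less frequent in members. Among them were TGGGCC (13.2% against 20.8%), TTGACC (9.09% against 14.1%) and ACGTGTC (0.826% against 5.07%). The window reaches into a close upstream gene on the same strand, found for 39.7% of members and 14.8% of those genes. The windows of the 2 sets are thus not of like sequence, and the part of this in the motif shares was not tested. In the last 50 bases of the 48 close upstream genes, AATAAA occurred in 4 (8.33%), beside 11.1% of the 2050 close upstream genes of all genes with at least 5 FPKM.

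At the edges of the rule the values were close together. Just inside the ratio of 1.5 were GSTU24 (1.5003), PCB2 (1.503) and AT5G14920 (1.504), and just outside were PnsL1 (1.4988), AT2G22795 (1.4984) and AT1G49310 (1.4977). At the level of 5 FPKM, AT1G78865 (5.08 FPKM in its lowest library) and AT4G01335 (5.10 FPKM) were inside, whereas AT3G09160 (4.95 FPKM) and AT2G21630 (4.83 FPKM) were outside.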

How the data were processed

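Organellar and ribosomal reads were filtered out by the authors with Bowtie2 2.3.4. They mapped the single reads of a stranded poly(A) library to TAIR10 with TopHat2 2.0.7 and default settings, and quantified transcripts with Cufflinks 2.2.1. The deposited values are FPKM per feature and library. Read counts were not given, so the depth behind each value is unknown and no counting interval could be computed. Whether the quantification used strand is not given in the sources used here, so reads of genes that overlap on opposite strands cannot be told apart. Strand would not separate reads in the stretch shared by overlapping genes of the same strand. Nor would it separate reads that run on from an upstream gene into a member.

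Of 64625 entries per library, the 33242 genes on the 5 chromosomes were used for the rule. The deposited FPKM were turned into log2(FPKM + 1). The 20249 features that reached 1 FPKM in 2 or more libraries were fitted over all 6 libraries with limma 3.58.1 in R 4.3.3, with a trended variance, and p-values were adjusted over all features by the Benjamini-Hochberg method at a threshold of 0.05. Log2 differences are on that scale and understate changes of low genes. The fit was tested on simulated data. Contrasts that the rule used are described with no test for members.

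Positions, gene names, miRNA and junction sequences come from the RefSeq annotation of TAIR10.1, in which 121 of the 122 members were found. Gene ends are the outermost annotated ones, and the upstream neighbour is the nearest gene whose annotated span begins before that of the member, on the strand given. Near-identical copies were sought with BLAST 2.17.0.

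The members and gene lists were chosen with earlier results of these data known. The genes named are NERD, the 20 members with the largest ratio, the 5 with the highest WT level, those at the edges of the rule, members on the gene lists, the 3 with the largest fitted change in each direction between nerd-1+T and WT, members that share a family name or adjoin each other, and the 3 neighbours with the largest change in each direction. The close upstream pairs, the 200 bp limit, the rule turned round, the TATAAA and AATAAA windows and the remorins were chosen after values were seen. So were the genes COR15A, IPS1 and MIR822 and the functional examples of second genes. The alternatives were other rule limits, pseudocounts, filters, scalings, a replicate block, a fit of the compared genotypes alone, and each library left out in turn.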

Additional observations from a re-analysis of the deposited data

How the results depend on the processing

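No fitted difference of a named gene tested under the alternatives changed sign. Some of these genes did not pass the threshold under every alternative, as given above for AT4G00670 and AT3G49551. The number of members was 351 with a ratio of 1.3, 24 with a ratio of 2, 204 with a level of 1 FPKM and 266 after scaling to the FPKM total, and it ran from 131 to 417 when 1 library was left out, the highest without nerd-1+T replicate 1. Scaling by the median feature gave 131 members, of which 104 were among the 122. The count of members higher in nerd-1+T than in WT was 26, and of those lower 10, after scaling by the median feature. With 1 library left out, these counts ran from 5 to 27 and from 9 to 58. Of the non-overlapping neighbours, 22 were higher in nerd-1 after scaling to the FPKM total, and with 1 library left out 13 to 21 were higher and 29 to 36 were lower. A fit with 1 sample left in a genotype assumes that this sample varies like the others. NERD stayed higher in nerd-1+T under each alternative, by 2.097 to 2.29 on the log2 scale. The share of members with a close upstream gene, recomputed for each form of the rule after the data were seen, ran from 26.1% (without nerd-1+T replicate 1) to 45.8% (ratio of 2). These sets share genes with the 122 members. Libraries that carry the same replicate number were not paired: their deviations from the genotype means correlated at 0.049 (WT and nerd-1), 0.088 (WT and nerd-1+T) and −0.001 (nerd-1 and nerd-1+T). With a replicate block, 11 members were higher and 34 lower in nerd-1+T, 33 neighbours were higher and 63 lower in nerd-1, and NERD was 2.11 higher (limma, adjusted p = 0.000352). The share of all tested features called was not set beside the counts with a replicate block or with 1 library left out. Those counts therefore do not show a change particular to members or neighbours. Without read counts, the FPKM leave the counting error of the lower genes unknown.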
